A study of Mus musculus with 12 samples.

Results

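The genes described here are the protein-coding mouse genes named Zfp900 to Zfp999, most of them Krüppel-associated box (KRAB) zinc finger genes. They were chosen by name, and 63 of the 55487 genes in the table fit. RNA-seq of male germ cells was compared on embryonic days E13.5 and E16.5 and on postnatal days P0 and P3, with 3 libraries per stage and 12 in all. The cells carried an Mvh-Venus transgene, a fluorescent germ cell reporter driven by the promoter of the germ cell helicase gene Ddx4 (Mvh). The labels disagree on genotype: all titles read WT, while the genotype tag reads Morc1 (+/-) at E13.5 and P0 and Morc1 (-/-) at E16.5 and P3. Every comparison of consecutive stages therefore also crosses the tag, and a difference of genotype and one of stage cannot be told apart there. The labels do not say whether the libraries of a stage came from separate animals, so the p-values measure only the spread between these libraries, which may be technical.

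A KRAB zinc finger protein binds DNA through a row of C2H2 zinc fingers and recruits the corepressor TRIM28 (KAP1) through its KRAB domain. TRIM28 in turn brings the histone H3K9 methyltransferase SETDB1 and heterochromatin protein 1, and many of the sequences silenced this way are endogenous retroviruses. The family grows by local duplication, so neighbouring genes are often near copies of each other. Male fetal germ cells re-establish DNA methylation in the interval sampled, when transposons have to be kept silent. Of the 63 genes, 61 encoded a match to a KRAB pattern and the exceptions were Zfp956 and Zfp957. Matches to a C2H2 finger pattern, the most in any annotated protein of a gene, ranged from 0 to 21. Their median was 11, and no match was found in Zfp935, Zfp957 or Zfp972.

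Of the 63 genes, 23 were listed at 0 in all 12 libraries, which is 36.5% of them, against 6 of the 328 other numbered Zfp genes (1.83%) and 8.97% of all 21897 protein-coding genes. They were not scattered: 15 lay in 1 block on chromosome 4, 7 in 1 block on chromosome 2, and the last was Zfp935 on chromosome 13. The genes listed at 0 in these blocks share sequence to different degrees: 49.7 to 100% of all 50-base stretches of their transcripts also occur in transcripts of other genes for those on chromosome 2, and 11.9 to 89.0% for those on chromosome 4. The lines below show 1 stretch of 50 bases from the chromosome 2 block that occurs letter for letter in the transcripts of all 7 of its genes listed at 0 (Zfp965, Zfp966, Zfp967, Zfp968, Zfp969, Zfp970 and Zfp973). Below it is the closest stretch in the 3 neighbours that had reads, with capitals marking the bases that differ. All are on GRCm38 and are written 5′ to 3′ on the gene's own strand: chr2:175382103-175382152 (+) for Zfp968, chr2:177919997-177920046 (-) for Zfp972, chr2:178032910-178032959 (+) for Zfp971 and chr2:178068242-178068291 (-) for Zfp931.
Zfp968: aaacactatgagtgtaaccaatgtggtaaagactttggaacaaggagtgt
Zfp971: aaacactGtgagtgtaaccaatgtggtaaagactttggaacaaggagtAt
Zfp972: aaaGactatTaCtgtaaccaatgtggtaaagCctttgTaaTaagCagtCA
Zfp931: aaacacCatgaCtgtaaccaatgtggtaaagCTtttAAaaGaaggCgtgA
The stretch differed at 2 bases in Zfp971, which had 283 reads over the 12 libraries, and at 9 bases in Zfp972 with 185 reads and in Zfp931 with 1240 reads. The copies with no difference had 0 reads. The stretch was picked among the genes listed at 0 as 1 that most of them hold, so this follows in part from the choice.

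The chromosome 4 block did not give the same picture. Copies with 1 difference had no reads there, while an unchanged copy outside the block had reads. The stretch shown for this block was likewise picked among its genes listed at 0. A stretch of 50 bases of Zfp990 (chr4:145537465-145537514, + strand) occurred unchanged in 11 of the 16 genes named Zfp900 to Zfp999 on that chromosome. It occurred in 14 genes in all, of which 13 were listed at 0. The exception was Gm8935, outside the naming series and outside the block, with 250 reads. It differed at 1 base in Zfp980 (chr4:145701599-145701648, +), Zfp993 (chr4:146658000-146658049, +), Zfp978 (chr4:147390912-147390961, +) and Zfp984 (chr4:147755486-147755535, -), which were also listed at 0. The last gene of the row, Zfp933 (chr4:147825964-147826013, -), differed at 8 bases and was the only one of the 16 with any reads, 24 over the 12 libraries. Capitals again mark differing bases, and 1 gene stands for each distinct form.
Zfp990: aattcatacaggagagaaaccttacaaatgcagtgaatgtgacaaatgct
Zfp980: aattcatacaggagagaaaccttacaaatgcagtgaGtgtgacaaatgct
Zfp993: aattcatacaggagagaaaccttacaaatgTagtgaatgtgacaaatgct
Zfp933: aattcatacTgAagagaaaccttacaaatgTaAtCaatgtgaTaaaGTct
The chromosome 4 genes at 0 were Zfp978, Zfp979, Zfp980, Zfp981, Zfp982, Zfp984, Zfp985, Zfp986, Zfp987, Zfp988, Zfp989, Zfp990, Zfp991, Zfp992 and Zfp993. Deletion of this cluster in mice has been reported to release some endogenous retroviruses from silencing, which is background and was not measured here.

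The zeros did not stop at the Zfp genes. Between positions 145510759 and 147809788 of chromosome 4 (GRCm38, 2.30 Mb), all 20 protein-coding genes and all 59 other annotated genes were listed at 0 in every library. The gene on the left of that block, Tnfrsf8, had a mean of 58.3 normalized counts and Zfp933 on its right had 1.67. A normalized count is the number of reads assigned to a gene divided by a factor for the depth of its library. On chromosome 2, between 175372436 and 177478129 (2.11 Mb), 28 of 29 protein-coding genes and 25 of 27 other genes were listed at 0, and the protein-coding exception was Gm14410 with 941 reads. Genes that every cell uses were also listed at 0 elsewhere, among them all 13 protein-coding genes of the mitochondrial genome and a run of 12 genes on chromosome 11 that includes Arhgdia, Alyref and P4hb. A zero in this table is therefore given only as a listed value, not as absence of the transcript.

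The share of sequence held in common with other genes was measured as the percentage of a gene's 50-base transcript words that also occur in an annotated transcript of another gene. Among the genes listed at 0 the median share was 77.4%, with a range of 11.9 to 100%, and among the 37 genes with enough reads for a test it was 6.55%, with a range of 0 to 82.7%. None of the 23 genes with a share under 10% was listed at 0, and 21 of them were tested. With a share of 10 to under 20%, 2 of 8 were listed at 0, with 20 to under 40%, 2 of 10, and with 40% or more, 19 of 22. Among the other numbered Zfp genes 5 of the 17 with a share of 40% or more were listed at 0, so a high share did not always come with 0 reads. The same held in the naming series, where Zfp960 (82.7%), Zfp972 (56.5%) and Zfp971 (51.1%) kept reads. In the other direction, Zfp982 (11.9%), Zfp985 (15.9%), Zfp979 (27.1%) and Zfp990 (29.1%) shared less than 40% and were listed at 0. All 4 lie in the chromosome 4 block. How reads that map to several places were counted is not given in the sources used here, so the part of multiple mapping in these zeros was not tested.

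**Figure D1:**
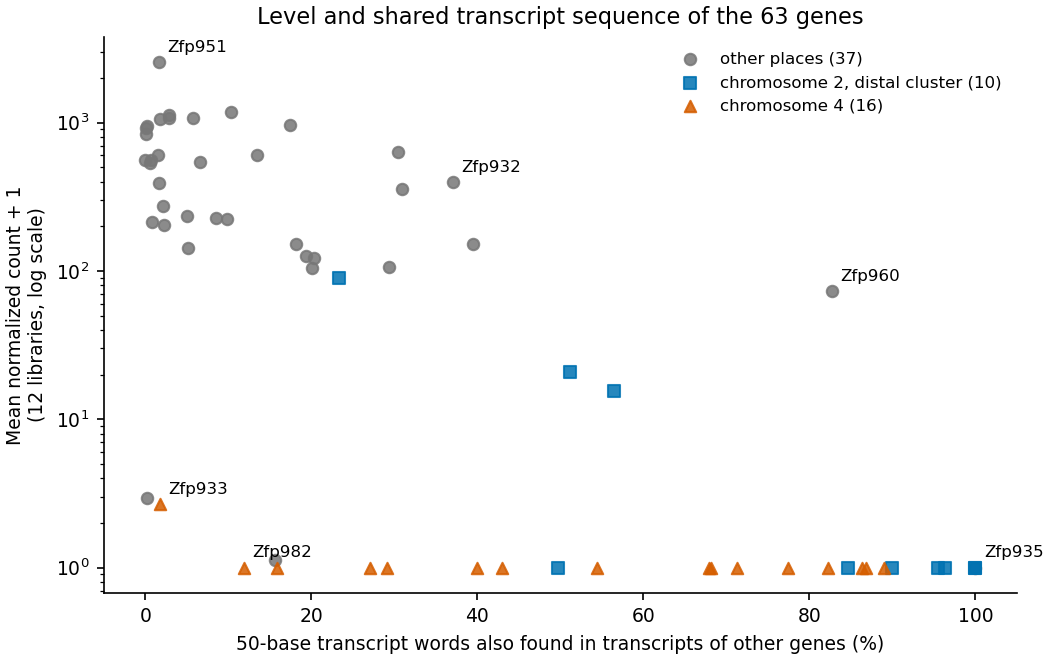
Each point is 1 of the 63 genes, with the percentage of its 50-base transcript words found in other genes' transcripts on the x axis and its mean normalized count plus 1 over 12 libraries on a logarithmic y axis. The 15 chromosome 4 genes and 7 chromosome 2 genes listed at 0 sit on the bottom line between 11.9 and 100%, while the tested genes lie under 40%, apart from Zfp971, Zfp972 and Zfp960 at 51.1, 56.5 and 82.7%.

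Zfp935 is a different case. Every exon base of it (100% of words shared) is overlapped by exons of Gm49359 on chromosome 13, and a read there fits both genes. Zfp935 was listed at 0 and Gm49359 had 477 reads, with stage means that went from 66.4 (E13.5) over 33.7 (E16.5) and 17.9 (P0) to 22.7 (P3). Zfp963 on chromosome 8 shares 40.8% of its exon bases with Gm20422, and there the Zfp gene held the reads and Gm20422 was listed at 0. The rule for reads in such overlaps is not given in the sources used here.

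Beside the 23 genes at 0 and the 37 tested, 3 genes had too few reads for a test. Zfp957, which had no match to the KRAB pattern or the finger pattern, had at most 11 reads in a library, Zfp933 at most 7 and Zfp936 at most 1. A gene was tested where 3 or more libraries held 10 or more normalized counts, which 58.7% of these genes met, against 95.7% of the other numbered Zfp genes and 40.3% of all genes. Counts below are over these 37 genes and not over all 63.

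On a scale per length, the mean normalized count per kb of exon over the 4 stages, the highest of the 63 was Zfp951 at 541, followed by Zfp944 at 420, Zfp959 at 393, Zfp938 at 391, Zfp948 at 344 and Zfp946 at 300. The median of the 37 tested genes was 99.3 per kb and that of all tested protein-coding genes 108. In normalized counts Zfp951 read 3607, 3287 and 3379 in the E13.5 libraries, 3326, 3702 and 3105 in those of E16.5, 1376, 1431 and 1223 in those of P0 and 2116, 2139 and 1998 in those of P3. On this scale they were all lower at P0 and P3 than at E13.5 and E16.5, with no overlap. Zfp944 read 2067, 1949 and 1638 in the E13.5 libraries, 859.8, 1157 and 848 in those of E16.5, 821, 740.1 and 598 in those of P0 and 1181, 1201 and 959 in those of P3. On this scale it was highest at E13.5 and lowest at P0, but with equal library totals its changes from E16.5 to P0 and from P0 to P3 turned and that from E13.5 to P0 did not pass the threshold. The values of Zfp959 were 1336, 1418 and 1399.7 in the E13.5 libraries, 1327, 1274 and 1109.6 in those of E16.5, 759.7, 690.1 and 624 in those of P0 and 551, 533 and 530.4 in those of P3. Its embryonic libraries were above its postnatal ones, and its change from E13.5 to P0 turned with equal library totals.

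Summed over the 63 genes, the normalized counts came to 23861 ± 1465 (SD, n = 3) for E13.5, to 22120 ± 1949 for E16.5, to 14655 ± 973 for P0 and to 16687 ± 422 for P3. As counts per 1000000 assigned reads (CPM) the order was another one, 445 ± 23.3 for E13.5, 585 ± 44.3 for E16.5, then 614 ± 24.9 for P0 and 391 ± 8.10 for P3. Whether the group as a whole was lower at P0 thus depended on how the libraries were scaled, and folds of single genes are given below on the deposited scale. These are bulk libraries, in which fewer cells of a type and less RNA per cell cannot be told apart.

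The libraries held between 40946616 and 51533747 assigned reads. The summed normalized counts of 5 germ cell genes lay between 133683 and 257754 in every library, above all other marker lists, and the lowest sums were those of P0. The P0 libraries held the highest sums of 6 Sertoli (3402 to 6281), 4 peritubular (3695 to 4157) and 4 mast cell genes (1170 to 2434). The sum of 3 endothelial genes was highest at E13.5 (4343 to 5085), and all 4 mast cell genes were at 0 there. The sum of 5 Leydig genes reached 7681 at E16.5 and lay between 1078 and 6106 at P0, and Insl3 was at 0 at P3. The sum of 6 blood genes was 66.3 to 443 at E13.5, 1791 to 2513 in the E16.5 libraries, 1603 to 2532 at P0 and 291 to 546 at P3. The sum of 4 macrophage genes was 38.1 to 71.8 at E13.5 and 974 to 1156 at E16.5, and lay between 92.2 and 290 in the postnatal libraries. Morc1 lay between 1621 and 1830 in the E13.5 libraries, between 28328 and 32917 in those of E16.5, between 7280 and 7708 in those of P0 and between 10584 and 11129 in those of P3, so it was not lowest where the tag reads -/-. Which part of Morc1 the allele removes is not given in the sources used here.

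Across the 4 stages 35 of the 37 tested genes changed (limma F test, adjusted p under 0.05 over all genes), where the share called over all tested genes was 95.2%. The exceptions were Zfp950 and Zfp971. Zfp950 varied least of all with a mean of at least 100: it read 183, 234 and 310.2 in the E13.5 libraries, 209, 245 and 212 in those of E16.5, 199, 210.3 and 187 in those of P0 and 187, 187 and 169 in those of P3, and neighbouring stages overlapped. Zfp995 and Zfp963 had the next smallest ranges of stage means. On the deposited scale the stage with the highest mean was E13.5 for 19 of the 37, E16.5 for 12, P3 for 4 (Zfp930, Zfp934, Zfp948 and Zfp972) and P0 for 2 (Zfp947 and Zfp995). E13.5 was highest in 51.4% of these genes, in 51.9% of the other numbered Zfp genes and in 30.7% of all tested genes. P0 was highest in 5.41%, 9.24% and 29.9% of the same sets. The lowest mean was at P0 for 18 genes, at P3 for 13, at E13.5 for 6 and at E16.5 for none. P0 was lowest in 48.6% of these genes, 49.7% of the other numbered Zfp genes and 30.4% of all tested genes, and E13.5 in 16.2%, 14.6% and 41.1%.

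**Figure D2:**
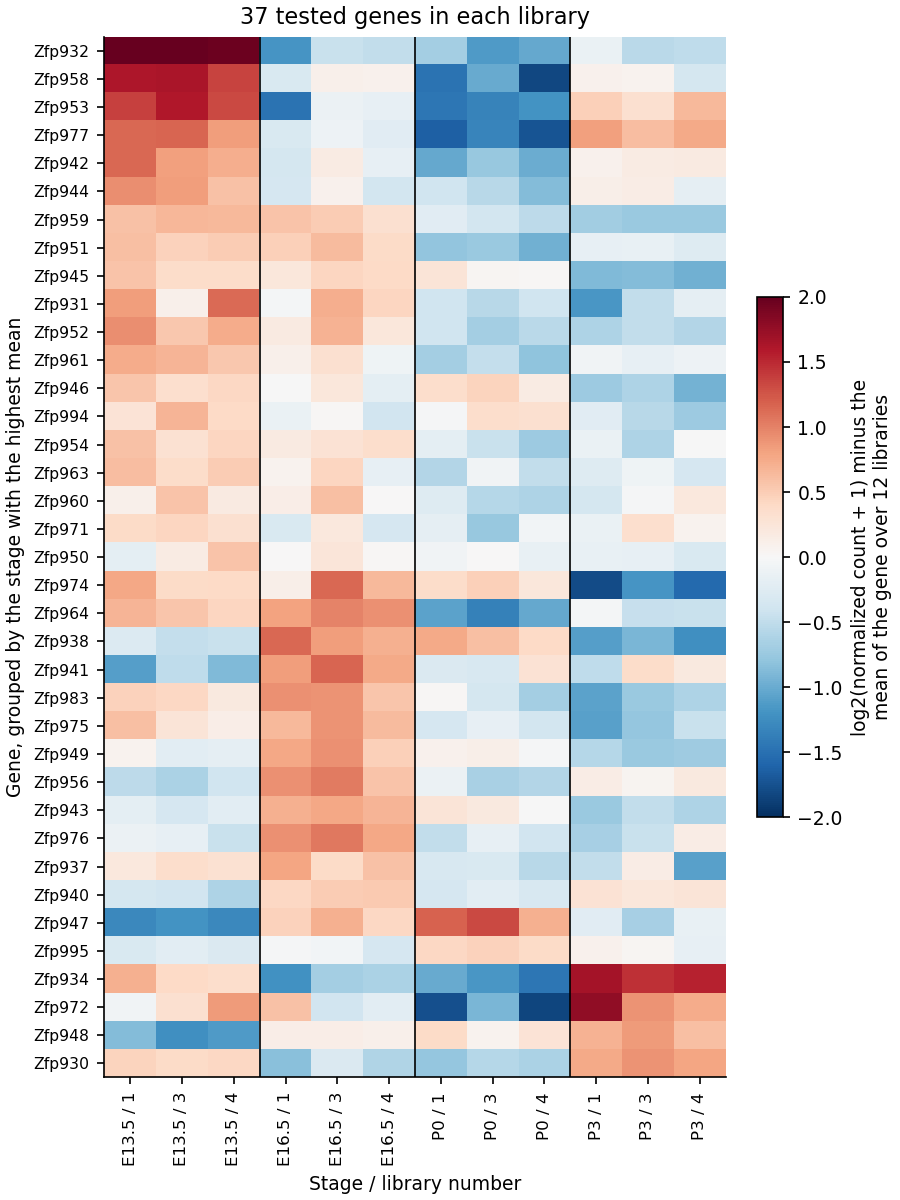
Rows are the 37 tested genes and columns the 12 libraries, coloured by the log2 normalized count minus the row's mean. Most rows are highest in the E13.5 or E16.5 columns, with Zfp934, Zfp930, Zfp948 and Zfp972 highest at P3.

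Between E13.5 and E16.5 the genes split. Zfp932, Zfp953, Zfp958, Zfp934 and Zfp977 fell most, by 2.39-fold to 6.71-fold, and Zfp947, Zfp941, Zfp956, Zfp938 and Zfp948 rose most. Of the 37 genes 21 changed, 10 higher and 11 lower, where 80.1% of all tested genes were called, 45.5% higher and 34.6% lower. Their median log2 fold change was -0.09, against 0.31 over all tested genes and -0.42 over the other numbered Zfp genes. Median-of-ratios factors gave 14 higher and 9 lower and equal library totals 19 higher and 8 lower, with the median of all tested genes at 0.55 and 0.84. The libraries of both stages did not overlap for 26 of the 37, and for 80.2% of all tested genes. Between these stages the macrophage and blood sums were higher and the endothelial sum lower (270 to 431 at E16.5). The peritubular sum was higher too, with 171 to 224 at E13.5 and 1252 to 1867 at E16.5. The part of these markers in the changes was not tested.

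Zfp932, which with its near copy Gm15446 has been described as a repressor of endogenous retroviruses in embryonic stem cells, fell furthest. It read 1182, 1042 and 1024 normalized counts at E13.5 and 115, 192 and 185 at E16.5, a log2 fold change of -2.75 ± 0.20 (SE) with an adjusted p of 1.13e-09 by limma. It was still low afterwards, with 164, 118 and 128 in the P0 libraries and 239, 181 and 184 in those of P3. The E13.5 libraries stood above those of every later stage. Gm15446 shares 34.9% of the words of Zfp932 and had stage means of 662 ± 7.34, 260.3 ± 57.4, 147 ± 19.3 and 202 ± 10.3 (SD, n = 3) in the same order. Both were highest at E13.5.

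Zfp958 on chromosome 8, which shares 0.648% of its words with other genes, read 1323, 1331 and 1098 at E13.5 and 346, 457 and 455 at E16.5, a log2 fold change of -1.58 ± 0.19 (SE) with an adjusted p of 7.24e-07 by limma. Zfp953 on chromosome 13 went from 279.7, 331 and 270.3 to 38.2, 99.5 and 96.6, a change of -2.01 ± 0.29 (SE) with an adjusted p of 7.95e-06 by limma. Both fell with no overlap between the stages. Zfp934 (-1.32, adjusted p = 2.77e-06) and Zfp977 (-1.26, adjusted p = 2.64e-06) completed the 5 largest falls by limma.

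Among the genes that rose, Zfp947 went from 34.8, 37 and 34.7 to 119, 141 and 115, a log2 fold change of 1.78 ± 0.23 (SE) with an adjusted p of 2.33e-06 by limma. Zfp941 went from 97.1, 147 and 114 to 376, 469 and 353, a change of 1.75 ± 0.24 (SE) with an adjusted p of 3.56e-06 by limma. Every E16.5 library of both exceeded every E13.5 library. Zfp938 on chromosome 10 rose from 596, 515 and 528 to 1603, 1291 and 1174, a change of 1.30 ± 0.13 (SE) with an adjusted p of 9.24e-08 by limma. Zfp956, which has C2H2 fingers but no match to the KRAB pattern, rose by 1.36 and Zfp948 by 1.20 on the log2 scale, both past the threshold. Values of the 5 genes that rose and the 5 that fell kept their direction and their call under every scaling and model tried.

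From E16.5 to P0 nearly all called genes were lower: 25 fell, led among those whose higher stage had a mean of 100 or more by Zfp964, Zfp958, Zfp977, Zfp951 and Zfp956, and only Zfp995 and Zfp946 rose. The share called over all tested genes was 61.0%, with 27.6% higher and 33.4% lower. The median log2 fold change of the 37 was -0.73, against -0.01 over all tested genes. The other numbered Zfp genes had 38 of 314 higher, 183 lower and a median of -0.48. The libraries did not overlap for 23 of the 37, against 69.5% of all tested genes. When all libraries were scaled to the same total instead, 9 were higher and 7 lower of 16 called, and that scaling moved the median of all tested genes to 0.68 and that of the 37 to -0.07. Median-of-ratios factors gave 5 higher and 19 lower. The distance between both medians was -0.72 to -0.75 in every scaling tried. A change of scaling shifts all genes nearly alike, so this distance had to stay nearly the same and is no check of the falls. On the deposited scale the sum of the germ cell markers was also lowest at P0 and those of Sertoli, peritubular and mast cell genes highest. The part of these markers in the falls was not tested, and their sums were not recomputed with equal library totals.

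Zfp964 on chromosome 8 fell furthest, from 307, 351 and 332 at E16.5 to 83.0, 67.9 and 85.9 at P0, a log2 fold change of -2.06 ± 0.17 (SE) with an adjusted p of 2.39e-08 by limma. Zfp951, the gene with the highest level per kb, went from 3326, 3702 and 3105 to 1376, 1431 and 1223, a change of -1.33 ± 0.08 (SE) with an adjusted p of 6.99e-10 by limma. Neither gene's stages overlapped. Zfp956 turned from its earlier rise, from 939.9, 1027 and 736 to 460.0, 316 and 330.1, a change of -1.29 ± 0.15 (SE) with an adjusted p of 1.25e-06 by limma. Zfp958 (-1.39, adjusted p = 6.73e-06) and Zfp977 (-1.35, adjusted p = 2.51e-06) fell for a second interval in a row by limma. Both had already been among the 5 largest falls of the interval before. Zfp995 on chromosome 17 was the exception with no overlap, from 584, 575 and 469 to 793, 818 and 773, a change of 0.56 ± 0.11 (SE) with an adjusted p of 3.26e-04 by limma. Its rise was past the threshold in every scaling tried. Zfp946 rose by 0.31 (limma adjusted p = 0.0335), with overlapping libraries. All 25 falls depend on the scale in size, and those of Zfp938, Zfp943, Zfp944 and Zfp963 had the opposite sign with equal library totals.

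**Figure D3:**
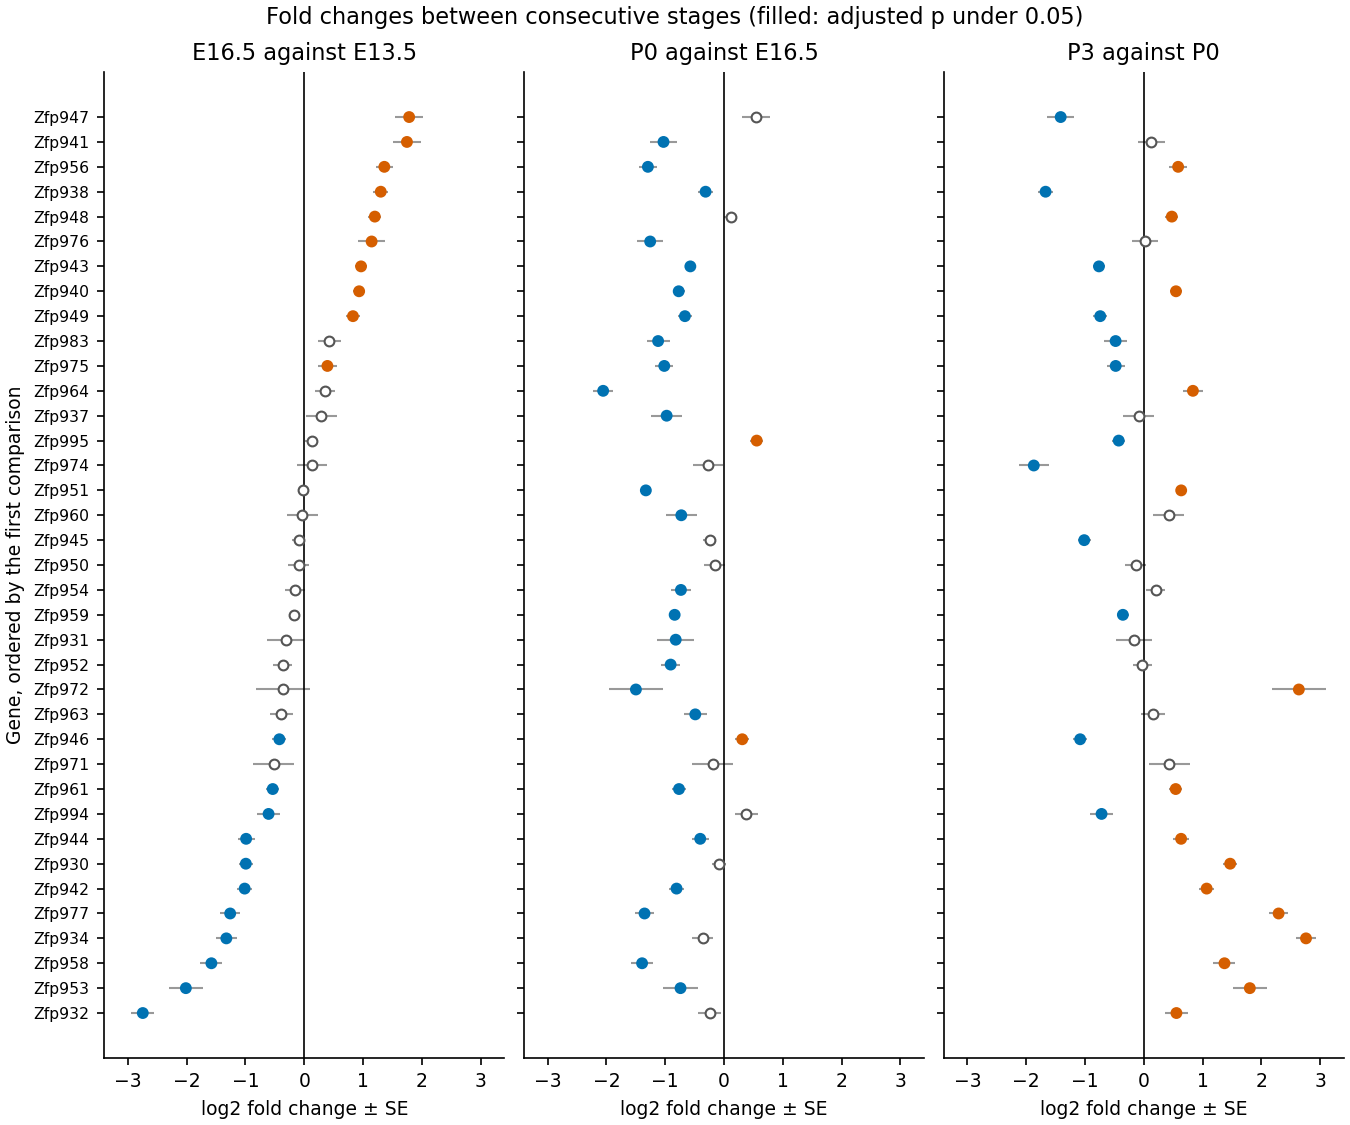
Points are the log2 fold changes of the 37 tested genes in the 3 consecutive comparisons, on the log2(normalized count + 1) scale with bars of 1 SE, filled (orange higher, blue lower) where limma's adjusted p was under 0.05 and open otherwise. The P0 against E16.5 values lie mostly below 0, with 25 called lower and 2 higher, while both other comparisons hold called genes on each side.

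Over the first postnatal days 15 of the 37 rose and 12 fell. Where the higher stage had a mean of 100 or more, Zfp934, Zfp977, Zfp953, Zfp930 and Zfp958 rose most, all of which had fallen from E13.5 to E16.5, and Zfp974, Zfp938, Zfp947, Zfp946 and Zfp945 fell most. Of all tested genes 76.5% were called, 40.1% higher and 36.4% lower. The median log2 fold change was 0.16, against 0.05 over all tested genes, and the libraries did not overlap for 26 of the 37, against 81.0%. Median-of-ratios factors gave 9 higher and 14 lower, and equal library totals 6 higher and 24 lower, where the median of all tested genes stood at -0.42 and -0.86. The 10 genes named here kept their direction and call in both. On the deposited scale the germ cell sum was higher at P3 than at P0 and the Sertoli, peritubular, Leydig, blood and mast cell sums were lower. The part of these markers in the changes was not tested.

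Zfp934 on chromosome 13 went from 132, 117 and 97.0 at P0 to 842, 733 and 769 at P3, a log2 fold change of 2.76 ± 0.18 (SE) with an adjusted p of 3.62e-10 by limma. The P3 level was above all E13.5 libraries too, which read 433, 348 and 338. Its partner Zfp808 shares words with it and is given further on. Zfp977 on chromosome 7 went from 58.0, 72.3 and 54.1 to 323, 279 and 308, a change of 2.29 ± 0.17 (SE) with an adjusted p of 1.90e-09 by limma. Zfp953 went from 39.2, 42.4 and 46.3 to 150.2, 134.5 and 170.1, a change of 1.80 ± 0.29 (SE) with an adjusted p of 3.10e-05 by limma. Zfp977, Zfp953 and Zfp958 had their lowest means at P0, but the fall of Zfp953 into P0 (-0.74, adjusted p = 0.0378 by limma) had overlapping libraries and did not pass the threshold under any of the 3 other scalings. These genes had E13.5 means of 379, 294 and 1250.4 above the P3 means of 303, 152 and 414, a difference that was not tested. Zfp930, with 0.173% of its words shared, went from 502, 580.4 and 554 to 1456, 1597 and 1478, a change of 1.47 ± 0.12 (SE) with an adjusted p of 6.91e-09 by limma. Its highest stage was P3.

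Of the genes that fell, Zfp974 on chromosome 7 had no change past the threshold up to P0 and then fell from 138, 148 and 125 to 30.04, 46.2 and 35.4, a log2 fold change of -1.87 ± 0.26 (SE) with an adjusted p of 4.91e-06 by limma. Zfp938 went from 1218, 1098 and 946 to 336, 380.1 and 306, a change of -1.67 ± 0.13 (SE) with an adjusted p of 4.84e-09 by limma. Both had no overlap between P0 and P3. Zfp947 fell from 197, 216 and 141 to 73.6, 54.0 and 77.9, a change of -1.41 ± 0.23 (SE) with an adjusted p of 3.65e-05 by limma. Zfp946 (log2 fold change -1.08) and Zfp945 (-1.01) fell as well, each past the threshold. Zfp945 had changed by -0.09 and -0.24 in the intervals before, neither past the threshold.

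**Figure D4:**
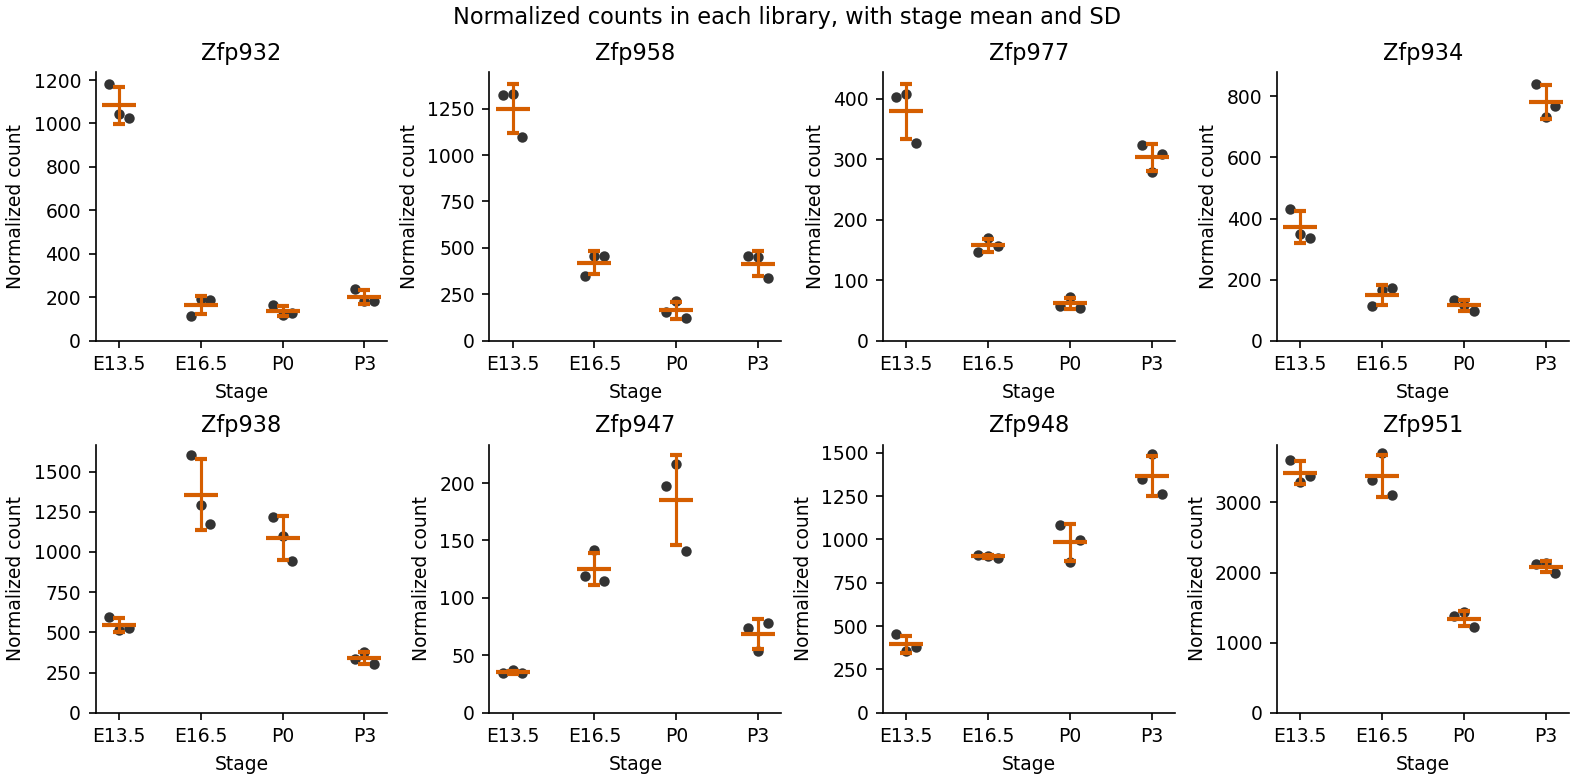
Normalized counts of named genes in each of the 3 libraries per stage, with the stage mean and SD. Zfp932 is high at E13.5 only, Zfp934 is highest at P3, and Zfp938 is highest at E16.5 and lowest at P3.

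A pair of comparisons stays within 1 reading of the genotype tag. P0 against E13.5, both tagged Morc1 (+/-), called 28 of the 37, 6 higher and 22 lower, where 86.1% of all tested genes were called, 45.7% higher and 40.5% lower. The median was -0.72, against 0.20 over all tested genes, and the libraries did not overlap for 30 of the 37, against 88.1%. Zfp932 (-2.99, adjusted p = 2.54e-10) and Zfp958 (-2.97, adjusted p = 1.49e-10) fell most by limma, and Zfp947 (2.33, adjusted p = 6.87e-08) rose most. With median-of-ratios factors the split was 10 higher and 15 lower and with equal library totals 17 higher and 8 lower. P3 against E16.5, both tagged Morc1 (-/-), called 25 of the 37, 6 higher and 19 lower, where 69.5% of all tested genes were called, 34.2% higher and 35.2% lower. There the median was -0.53, against -0.05, and 27 of the 37 did not overlap, against 71.6%. Zfp934 rose by 2.40 and Zfp930 by 1.39, while Zfp974 (-2.15) and Zfp938 (-1.98) fell most. No called gene of that comparison turned under any scaling tried. Both comparisons share libraries with the consecutive ones and are no separate evidence for them.

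Neighbours could move in opposite directions. On chromosome 17 Zfp942 and Zfp943 start 87 bases apart and are transcribed away from each other, Zfp942 on the minus and Zfp943 on the plus strand. The stretch between their annotated starts (GRCm38 chr17:21962465-21962551, written 5′ to 3′ on the plus strand) is shown because it is common to both promoters, with its 9 CpG dinucleotides in capitals.
Zfp942 to Zfp943: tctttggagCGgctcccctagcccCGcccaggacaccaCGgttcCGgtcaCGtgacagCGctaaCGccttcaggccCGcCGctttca
In RefSeq windows on GRCm38 of 250 bases before to 50 after each start, counting the letters CG (the same on both strands), the window of Zfp942 held 20 CpG and that of Zfp943 held 21. At least 20 CpG occurred in 26.8% of all such windows. Of the 63 genes 53 had a window, with a median of 8 CpG, 5 in the 16 windows of genes listed at 0 and 9 in the 37 of genes with reads, against 7 over all genes. Methylation was not measured in these libraries.

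Zfp942 read 2127, 1691 and 1577 in the E13.5 libraries, 751, 1077 and 852 in those of E16.5, 472, 565 and 481 in those of P0 and 1018, 1078 and 1082 in those of P3. It fell in the first 2 intervals (log2 fold change -1.01 and -0.81) and rose in the last (1.07). Zfp943 read 920.5, 835 and 909.6 in the E13.5 libraries, 1721, 1797 and 1683 in those of E16.5, 1263, 1202 and 1042 in those of P0 and 629.9, 748 and 687 in those of P3. It rose to E16.5 by 0.97 ± 0.10 (limma adjusted p = 7.54e-08), where Zfp942 changed by -1.01 ± 0.13 (adjusted p = 2.35e-06). From P0 to P3 it fell (-0.76, limma adjusted p = 1.68e-06) while Zfp942 rose (adjusted p = 1.51e-06). From E16.5 to P0 both were lower on the deposited scale, and with equal library totals the change of Zfp943 there turned and the changes of Zfp942 to P0 and to P3 did not pass the threshold. The difference between both genes' changes was not tested as such, and the pair was picked after its values were seen.

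**Figure D5:**
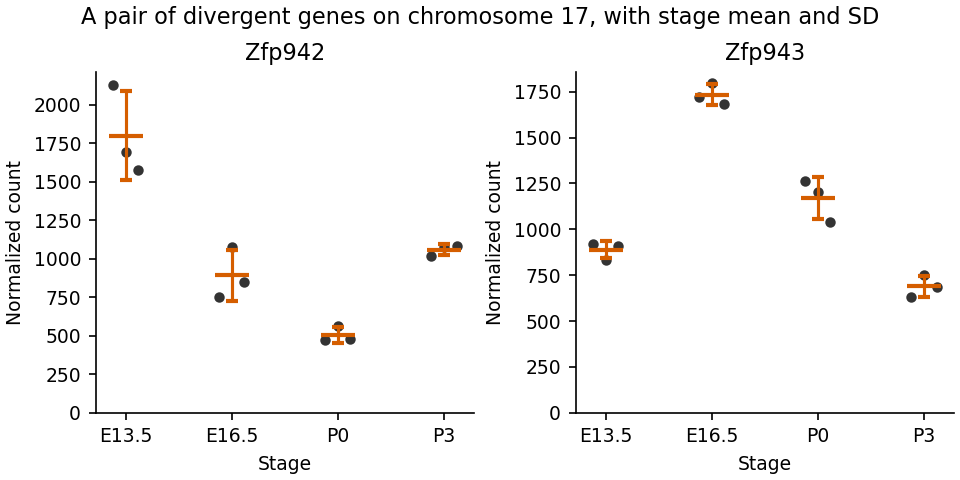
Normalized counts of Zfp942 and Zfp943 in the 3 libraries of each stage, with mean and SD, each on its own linear axis from 0. Zfp942 is highest at E13.5 and lowest at P0, and Zfp943 is highest at E16.5 and lowest at P3.

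The 13 genes on chromosome 17 were all tested, in contrast to those on chromosomes 2 and 4. Within a stretch from Zfp948 to Zfp945 lie genes with their highest mean at P3 (Zfp948), at P0 (Zfp995 and Zfp947), at E16.5 (Zfp943 and Zfp983) and at E13.5 (Zfp942, Zfp944, Zfp945, Zfp946 and Zfp994). Zfp948 read 452, 354 and 379 in the E13.5 libraries, 907, 907 and 894 in those of E16.5, 1083, 867 and 998 in those of P0 and 1348, 1489.8 and 1259 in those of P3. It rose at E16.5 and again at P3 on the deposited scale, and the second of these turned with equal library totals. On chromosome 7, Zfp977, Zfp976 and Zfp975 lie side by side on the minus strand. Zfp976 read 103, 100.1 and 82.0 at E13.5 and 211, 232 and 191 at E16.5, a rise of 1.15 (limma adjusted p = 1.95e-04), where Zfp977 fell.

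For the genes that share at least 20% of their words and had reads, the partner's values are set beside them. Zfp934 shares 30.9% of its words, with Zfp808 as its closest partner, whose stage means were 512, 236, 236 and 549 from E13.5 to P3, against 373, 149.7, 115 and 781 for Zfp934. Both were higher at P3 than at P0. Zfp960 shares 82.7% with others, most with Zfp97, and both were low, with means of 86.1, 84.6, 50.2 and 68.0 for Zfp960 and 137, 78.7, 60.6 and 102 for Zfp97. Zfp937 shares 29.4%, with Zfp442 as its closest partner, and had means of 120.4, 148, 74.8 and 74.8, where Zfp442 had 67.2, 78.7, 34.8 and 19.4. Both were highest at E16.5. Zfp975 and Zfp976 are each other's closest partner, with 16.1% of the words of Zfp975 found in Zfp976 and 14.3% of those of Zfp976 in Zfp975, and both were highest at E16.5. Zfp947 has Zfp995 as its closest partner, and both had their highest mean at P0. For such pairs a read in the common words cannot be told apart, so likeness of the values is not evidence that both genes were transcribed.

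Of the distal chromosome 2 genes with reads, Zfp931 had the most, 143, 84.9 and 176 in the E13.5 libraries, 77.3, 132 and 108 in those of E16.5, 60.0, 53.8 and 60.3 in those of P0 and 34.9, 56.0 and 69.8 in those of P3. Zfp971 had 25.3, 26.1 and 24.2 in the E13.5 libraries, 15.3, 22.3 and 15.0 in those of E16.5, 16.7, 10.9 and 18.3 in those of P0 and 17.4, 24.6 and 20.2 in those of P3. Zfp972 had 10.6, 14.1 and 21.03 in the E13.5 libraries, 17.2, 8.37 and 9.50 in those of E16.5, 2.61, 5.43 and 2.41 in those of P0 and 40.7, 21.6 and 19.2 in those of P3. Zfp972 rose from P0 to P3 by 2.64 (limma adjusted p = 6.51e-05) from a few reads, more than all but Zfp934 in that interval, and Zfp971 did not pass the threshold in any comparison. With 23.3, 51.1 and 56.5% of words shared, these values may hold only part of each gene's reads.

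Restricting the count to genes with less than 10% of words shared left 21 tested genes, of which 1 was higher and 16 were lower from E16.5 to P0 on the deposited scale, with a median of -0.77. Over all tested genes 61.0% were called there, 27.6% higher and 33.4% lower. For the 37 genes the excess of falls was lost with equal library totals, and this smaller set was not counted under that scaling. Zfp961 on chromosome 8, with 2.83% of its words shared, is an example: it read 1702, 1628 and 1478 in the E13.5 libraries, 1094, 1278 and 959 in those of E16.5, 638, 735 and 581 in those of P0 and 976, 909 and 950.5 in those of P3. It fell in the first 2 intervals (-0.54, adjusted p = 3.36e-04, and -0.77, adjusted p = 1.76e-05 by limma) and was higher again at P3 (0.54, adjusted p = 3.36e-04), a change that turned with equal library totals, where the earlier falls did not pass the threshold. Zfp949 is the gene with no shared word at all, and its stage means from first to last were 489 ± 52.9, 872 ± 129, 546 ± 26.1 and 327 ± 21.2 (SD, n = 3).

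RNA of a chosen list of silencing cofactors, with Trim28 and Setdb1 among them, was measured in the same libraries. Of 12 silencing cofactors, 1 rose (Chd3, a chromatin remodeller) and 9 fell from E13.5 to E16.5, 2 rose and 9 fell to P0, and 10 rose and 1 fell to P3. Over all tested genes 80.1%, 61.0% and 76.5% were called in these intervals. On the deposited scale the summed germ cell markers moved with the last 2, from a median of 256998 (E16.5) to 140904 (P0) and then 239138 (P3). The Sertoli, peritubular and mast cell sums were highest at P0 on that scale. The part of these markers in the cofactor changes was not tested. The cofactors' median log2 fold changes were -1.06, -0.86 and 1.37. Trim28, the corepressor, had means of 26512 ± 849, 12307 ± 1030.5, 6658 ± 231 and 8364 ± 711 (SD, n = 3). Setdb1, the H3K9 methyltransferase, had 8042 ± 871, 4341 ± 607, 2421 ± 189 and 5581 ± 728. Both fell at E16.5 and P0 and rose at P3 on the deposited scale. Among the scalings tried, the P0 to P3 rise of Trim28 (0.33) passed the threshold on the deposited scale only. It was -0.11 with median-of-ratios factors (limma adjusted p = 0.197) and turned to -0.51 with equal library totals. The change of Setdb1 stayed higher, 1.20 on the deposited scale and 0.36 with equal library totals. With those totals 4 cofactors were higher and 8 lower at E16.5, 3 and 4 at P0, and 7 and 4 at P3. Cbx1, which encodes a heterochromatin protein 1, changed by -3.62, -0.86 and 2.90 on the log2 scale in the 3 intervals. With equal library totals the change from E16.5 to P0 did not pass the threshold for Cbx1 (-0.20, limma adjusted p = 0.14) or Setdb1 (-0.17, limma adjusted p = 0.164). Of 13 tested zinc finger genes with described functions outside the naming series, mostly of the KRAB kind, 4 rose and 7 fell, then 1 rose and 6 fell, then 6 rose and 4 fell in the same intervals, on the deposited scale. With median-of-ratios factors the last split was 2 higher and 6 lower. With equal library totals the second was 4 higher and 5 lower and the last 2 higher and 7 lower. Zfp809, known for silencing proviruses, changed by -2.39 from E13.5 to E16.5 (limma adjusted p = 1.03e-07). Zfp57, which protects imprinted methylation, was low at every stage, with means from 13.4 to 59.8.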

How the data were processed

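Members were found by symbol and by the protein-coding type in GENCODE M21 (GRCm38), after matching 55141 of 55487 gene identifiers. The gene lists, the members and the rules for naming genes were chosen with earlier results of these data known. Libraries were made with SMART-seq v4 and a TruSeq kit, per the labels' protocols. Reads were trimmed with cutadapt 1.18, aligned with HISAT2 2.1.0 to mm10 (GRCm38), counted with featureCounts 1.5.2 and scaled with DESeq2 1.26.0, per the submitters' processing notes. Settings for multiple mapping, overlap and strand are not given in the sources used here.

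The deposited signal is a normalized count, that is, assigned reads divided by a size factor for each library (0.919 to 2.07), and 100% of the values came back as whole reads within 0.001. Columns numbered 1, 3 and 4 name a stage but not a labelled replicate, so libraries were used as members of their stage only. The test was limma 3.58.1 (trend) on log2(normalized count + 1) over the 22384 genes for which 3 or more libraries held 10 or more normalized counts, fitted on 4 stages with 8 residual degrees of freedom and Benjamini-Hochberg adjusted over all of them. On recovered reads edgeR 4.0.16 called 17851, 14370 and 17358 genes in the 3 consecutive comparisons, against 17932, 13658 and 17122 by limma. Fold changes on this scale understate those of low genes.

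Named genes were the 6 highest per kb, up to 5 per direction and consecutive comparison with the largest change, no overlap and a mean of at least 100, the 3 with the smallest range, those at 3 reads or fewer in every library, those with at least 20% of words shared, and Zfp932 and Zfp961. Other genes are named from counts of 5 or fewer or as neighbours, and were picked after their values were seen. The KRAB pattern was widened after the first matches were seen, and only annotated transcripts were compared for shared words. Alternatives were other scalings, pseudocounts, filters, edgeR and DESeq2 1.42.0, fewer stages and leaving out each library.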

Additional observations from a re-analysis of the deposited data

How the results depend on the processing

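No paired analysis was possible because the column numbers (1, 3 and 4) are not the replicate numbers in the labels, and no block term could be built. All 26 fold changes named in the 3 consecutive comparisons kept their direction and call in 22 settings (572 values). They had been selected as the largest called changes with no overlap, so this was likely beforehand and does not extend to the other genes. Of 142 recomputed counts of genes called among the 37, 131 stayed within 1.5 times. With equal library totals the count from E16.5 to P0 was 16 in place of 27, and of those 27 genes 4 turned and 14 lost their call. Requiring a log2 fold change of at least 1 gave 12 from E13.5 to E16.5, 10 from E16.5 to P0, 12 from P0 to P3, 17 from E13.5 to P0 and 15 from E16.5 to P3. Genes with under 10% of words shared, fewer by construction, gave 17, 17, 16 and 16 in the last 4 of these comparisons, and 20 among stages. Leaving out each library in turn gave 20 to 22, 21 to 28, 24 to 28, 26 to 28 and 23 to 26 in the order above, and 34 to 36 among stages. Depth limits Zfp933, Zfp936, Zfp957, Zfp971 and Zfp972. A 0 in 1 library taken alone allows 3 expected reads there by counting error, leaving aside how shared reads were assigned. For a gene at 0 in all 12 libraries the number allowed per library is smaller.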
